A study of Mus musculus with 19 samples.

Results

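Hepatocytes are the parenchymal cells of the liver and make most plasma proteins, among them albumin, transport proteins, apolipoproteins, clotting factors and protease inhibitors, and they carry the urea cycle, amino acid breakdown and the cytochromes P450. Kupffer cells (KCs), the resident macrophages of the liver, lie in the sinusoids beside them and are sorted from digested liver. The transcripts described here are 41 genes of hepatocyte function, read in RNA of sorted KCs. A gene was taken where the array held a probeset, the group of probes read together, assigned to that gene symbol alone, and where there were several the one with the highest mean was used. This gave 39 of the 41 genes, of 19938 genes measured in all. Ass1, a urea cycle enzyme, lies only on probesets shared with another symbol. Gc, the vitamin D-binding protein, had no probeset assigned to its symbol in the gene annotation used, so its level was not read. The 39 genes fall into 7 groups by role.

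KCs expressing Clec4F were purified by flow cytometry from perfused, collagenase-digested livers of C57Bl/6 mice aged 6 to 12 weeks, and the RNA was hybridised to 19 Affymetrix arrays, 1 per biological replicate. KC-DTR mice carry the diphtheria toxin receptor and YFP in the Clec4f gene, which is active in KCs, so diphtheria toxin (DT) removes the embryonic KCs (em-KCs) and monocyte-derived KCs (mo-KCs) refill the liver. The groups were em-KCs of WT mice without DT (3 arrays), em-KCs of KC-DTR mice without DT (3), em-KCs of the WT littermates of KC-DTR mice without DT (1), 15 days after DT (2) and 30 days after DT (2), and mo-KCs of KC-DTR mice 15 days (3) and 30 days (5) after 50 ng DT. The 8 em-KC arrays of KC-DTR mice and littermates are called colony em-KCs. The sort gate itself used Clec4F, so Clec4f is no independent check of identity. Vsig4, another KC gene, stood high, at 12.71 to 13.03 on the log2 scale on all 19 arrays.

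The arrays formed 2 sets that the labels do not name. The mean of the 3 Y-linked genes Eif2s3y, Kdm5d and Uty was 3.97 to 4.18 on the 3 WT em-KC arrays and on day 30 mo-KC replicates 3 to 5, and 7.33 to 7.83 on the other 13 arrays, while Xist, the transcript of the inactive X chromosome, stood at 8.72 to 9.51 on those 6 arrays and at 4.07 to 4.53 on the 13. The study used male and female mice and does not give the sex of a sample. All WT em-KC arrays were in the low Y-linked set and all colony em-KC and day 15 arrays in the high set, so that the WT group and the array set cannot be told apart in a direct comparison, and day 30 mo-KCs lay in both. The 13 immediate-early genes, which respond to tissue dissociation, followed the same split, with a mean level of 7.92 to 8.53 in the low Y-linked set and 9.60 to 10.57 in the other. Results for the hepatocyte transcripts below are therefore given over all arrays and within each set, and other gene lists with the array set taken into account where that moved their calls.

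Promoter sequence is shown for 4 of the transcripts, chosen to put a strong and a flat member side by side with and without known hepatocyte motifs. RefSeq promoters (GRCm38.p6) were found for 33 of the 41 genes, 31 of them measured. The 250 bases before the start were searched on both strands for GTTAAT, the core of sites bound by HNF1, for TGTTTGC, a forkhead (FOXA) sequence, and for TTGCNNAA, a C/EBP-like sequence, the last of which can overlap the forkhead sequence. Capitals mark the matches on either strand.
Alb (chr5:90460620-90460869, plus strand): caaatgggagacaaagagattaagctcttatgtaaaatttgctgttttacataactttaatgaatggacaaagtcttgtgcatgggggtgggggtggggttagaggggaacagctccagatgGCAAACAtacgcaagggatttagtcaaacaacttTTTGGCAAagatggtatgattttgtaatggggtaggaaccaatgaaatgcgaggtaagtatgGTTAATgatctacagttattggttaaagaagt
Serpina1d (chr12:103773634-103773883, minus strand): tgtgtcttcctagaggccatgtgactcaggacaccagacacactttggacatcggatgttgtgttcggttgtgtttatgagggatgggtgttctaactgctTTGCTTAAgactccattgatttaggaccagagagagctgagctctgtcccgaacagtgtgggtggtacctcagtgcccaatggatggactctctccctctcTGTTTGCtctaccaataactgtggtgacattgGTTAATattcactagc
F2 (chr2:91636458-91636707, minus strand): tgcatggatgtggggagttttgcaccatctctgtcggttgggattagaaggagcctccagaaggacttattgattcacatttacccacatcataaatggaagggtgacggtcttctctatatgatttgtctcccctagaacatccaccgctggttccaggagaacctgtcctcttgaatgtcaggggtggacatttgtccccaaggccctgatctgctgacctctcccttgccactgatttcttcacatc
Fabp1 (chr6:71199629-71199878, plus strand): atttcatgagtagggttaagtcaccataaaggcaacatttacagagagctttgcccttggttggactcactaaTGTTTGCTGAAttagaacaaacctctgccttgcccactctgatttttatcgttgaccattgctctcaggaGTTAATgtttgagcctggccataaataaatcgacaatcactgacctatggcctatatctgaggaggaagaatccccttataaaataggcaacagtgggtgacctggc

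Each of the motifs was found in 11 of the 33 genes, that is 33.3%, against 7.49% of 27018 genes for GTTAAT, 4.93% for TGTTTGC and 10.8% for TTGCNNAA. At least 1 motif was present in 21 of the 33, that is 63.6%, against 20.8% of all genes. Alb, Serpina1d and Fabp1 held all 3, and F2 (prothrombin) held none in this window. Alb, Serpina1d and F2 were far higher in WT em-KCs than in colony em-KCs, and Fabp1 was not, as described below. In Alb the GTTAAT match began at base -32 from the start, in Serpina1d at -16 and in Fabp1 at -107, and the forkhead and C/EBP-like matches of Fabp1 overlapped. A match of letters is a description of the sequence and not a bound site.

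The mean log2 level of the 39 transcripts was 9.12, 9.15 and 9.07 on the WT em-KC arrays. It was 7.38, 7.42 and 7.05 in untreated KC-DTR em-KCs, 7.05 in the untreated littermate, 7.57 and 7.88 in littermates 15 days after DT and 7.50 and 7.34 in littermates 30 days after DT. The day 15 mo-KC arrays stood at 7.05, 7.34 and 6.99. Day 30 mo-KC replicates 1 and 2 stood at 6.77 and 6.80, the lowest of all 19 arrays, and replicates 3 to 5 at 7.37, 8.01 and 8.15. The WT em-KC arrays thus lay above every other array, and of the remaining groups only day 30 mo-KC replicates 4 and 5 rose above the highest colony array. For 37 of the 39 genes the highest value was on a WT em-KC array, and for 26 the lowest was on a mo-KC array. Neither count was made over all genes. In bulk RNA such a level cannot separate fewer hepatocyte-expressing cells from less hepatocyte RNA per cell. The source of these transcripts in the sorted KC samples was not tested.

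**Figure D1:**
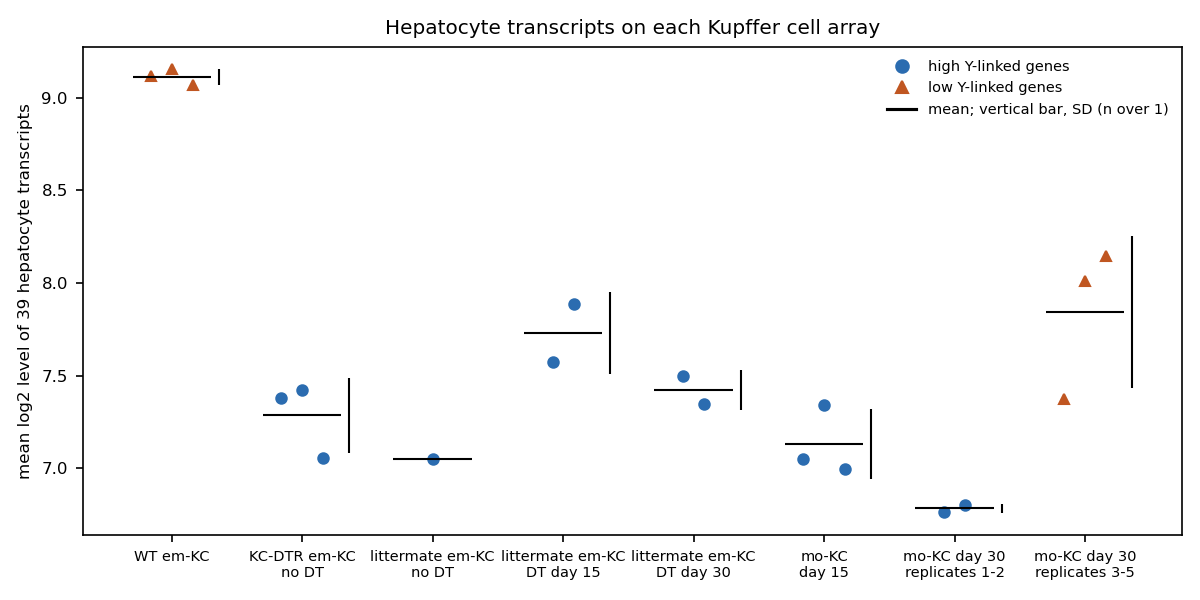
Mean log2 level of the 39 hepatocyte transcripts (vertical axis) on each array by group (horizontal axis). Circles are arrays with high and triangles arrays with low Y-linked genes, the horizontal line is the group mean and the vertical bar its SD. The WT em-KC arrays lie at 9.07 to 9.15 and all other arrays at 6.77 to 8.15.

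WT em-KCs held more of nearly all hepatocyte transcripts than colony em-KCs. Of the 39, 36 were higher, none was lower and 3 did not pass the test (limma, adjusted p under 0.05 over all genes), where 9.5% of all genes were higher and 11.4% lower. The median difference was 1.72 on the log2 scale, a 3.30-fold higher level, against 0.04 over all genes. For 35 of the 39 every WT array lay above every colony array, which held for 8.43% of all genes. With the array set as a block, a fit that rests on day 30 mo-KCs to estimate the set, the median fell to 0.67 and 4 members were higher, against 1.9% of all genes. The 4 were F2, Pck1, Aadac and Trf, and the last of these had not passed without the block.

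**Figure D2:**
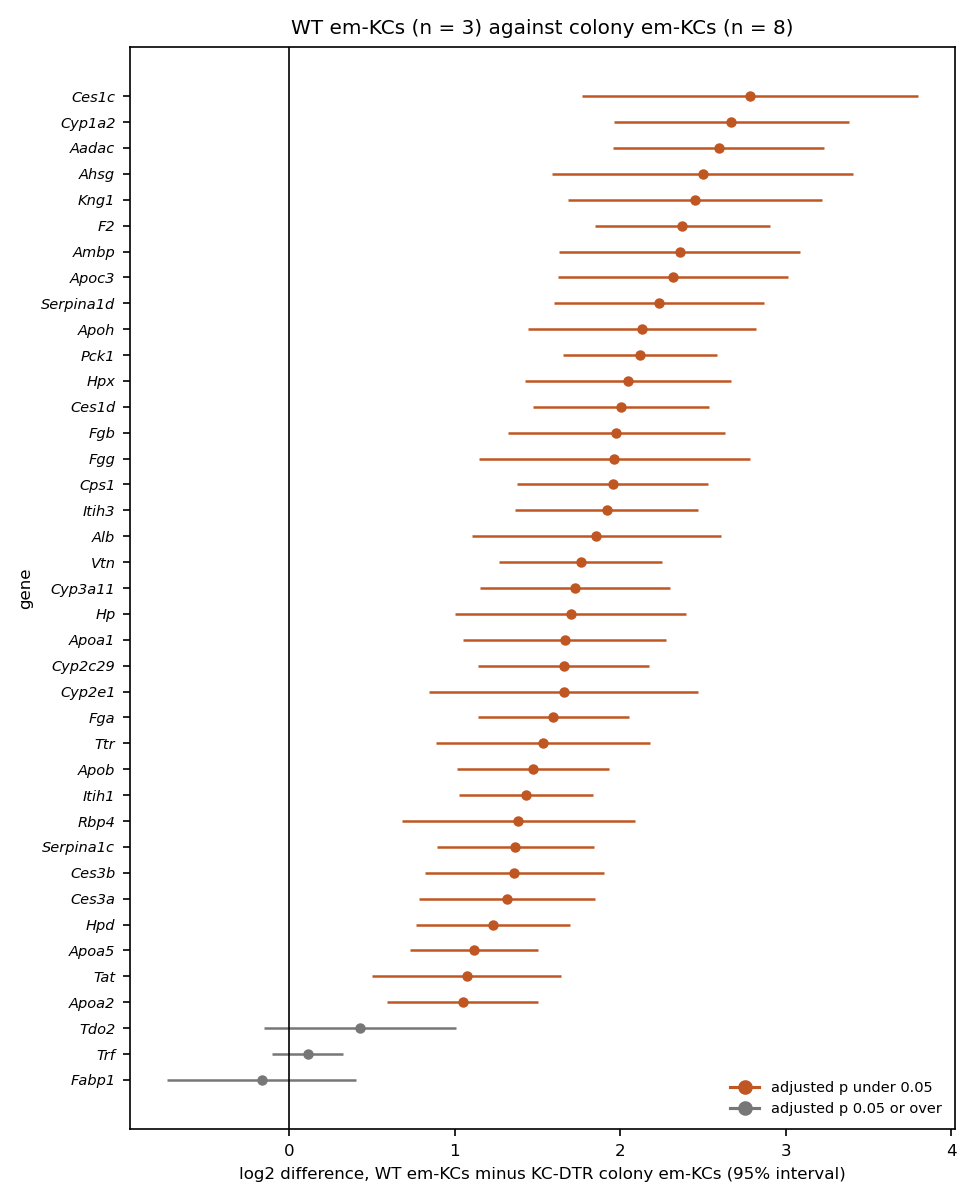
Difference in log2 level between WT em-KCs (n = 3) and colony em-KCs (n = 8) for each of the 39 transcripts (rows), with its 95% interval from the limma fit. Points right of 0 are higher in WT em-KCs. 36 transcripts pass the threshold, and Tdo2, Trf and Fabp1 do not.

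Plasma carriers, which bind and move ligands in blood, were higher in 7 of 8 measured members, with a median difference of 1.78. Ahsg, the fetuin that keeps calcium phosphate in solution, showed the largest. Its log2 levels were 10.57, 10.63 and 10.49 in WT em-KCs against a lowest of 7.39, a median of 8.11 and a highest of 8.56 in colony em-KCs, a difference of 2.50 ± 0.44 (SE, adjusted p = 0.000485, limma). Alb, the main protein of plasma, read 12.41, 12.56 and 12.52 in WT em-KCs. In colony em-KCs its lowest, median and highest levels were 9.76, 10.66 and 11.38, a 3.62-fold difference (adjusted p = 0.00115, limma). Trf, transferrin, which carries iron and is made in other cells as well, differed from the rest of the group. Its levels were 11.91, 12.02 and 11.84 in WT em-KCs and 11.58 to 11.94 in colony em-KCs, and the groups overlapped (difference 0.11 ± 0.10 SE, adjusted p = 0.47, limma). The others, Ambp, Hpx, Hp, Ttr and Rbp4, were 2.61-fold to 5.13-fold higher.

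All 6 apolipoproteins, the protein part of lipoprotein particles, were higher in WT em-KCs, with a median difference of 1.57. Apoc3, an inhibitor of lipoprotein lipase, had the largest difference of the 6. Its levels were 10.82, 9.91 and 10.23 in WT em-KCs and 7.21 to 8.56 in colony em-KCs (2.32 ± 0.33 SE, adjusted p = 8e-05, limma). Apoa2, a protein of high-density lipoprotein, had the smallest. It read 11.92, 11.86 and 12.22 against a lowest of 10.50, a median of 10.92 and a highest of 11.60 in colony em-KCs (1.05 ± 0.22 SE, adjusted p = 0.002, limma), so that both groups still did not overlap.

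The 6 coagulation and matrix-binding plasma proteins were all higher as well, with the highest median of the 7 role groups, 1.97. Kng1, the precursor of bradykinin, read 9.36, 9.41 and 9.28 in WT em-KCs. Its lowest, median and highest levels in colony em-KCs were 6.44, 6.84 and 7.34, and the difference was 2.45 ± 0.37 (SE, adjusted p = 0.000116, limma). F2 was 5.19-fold higher (adjusted p = 3.55e-06, limma). The smallest difference was that of Fga, the fibrinogen alpha chain, at 3.02-fold, with 7.97, 8.36 and 7.80 against 6.13 to 6.80. Fgb and Fgg, the other fibrinogen chains, were 3.93-fold and 3.90-fold higher, and Vtn, vitronectin, 3.39-fold.

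Of the 4 protease inhibitors Serpina1d, a form of alpha-1-antitrypsin, differed most. It read 10.78, 10.81 and 10.45 in WT em-KCs and 7.88 to 8.74, with a median of 8.49, in colony em-KCs (4.70-fold). Serpina1c, a close copy of it, had the smallest difference of the group, 2.58-fold, with 11.14, 11.10 and 10.88 against 9.02 to 10.20. Probes of such near-identical genes can bind the RNA of both, so the split between Serpina1c and Serpina1d is uncertain, and the same holds for Ces1c and Ces1d and for Ces3a and Ces3b. Itih1 and Itih3, heavy chains that join hyaluronan, were 2.70-fold and 3.78-fold higher.

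Among the enzymes of nitrogen, amino acid and glucose metabolism 4 of 5 measured members were higher. Pck1, the first committed enzyme of gluconeogenesis, was the most changed. Its levels of 7.28, 8.69 and 7.72 in WT em-KCs lay above the colony range of 5.50 to 6.03 (4.35-fold, adjusted p = 3.26e-06, limma). Cps1, which starts the urea cycle, was 3.88-fold higher. Hpd, of tyrosine breakdown, was 2.35-fold higher and Tat, the tyrosine aminotransferase, 2.10-fold. Tat overlapped between the groups, with 8.37 on littermate DT day 30 replicate 1, and its adjusted p of 0.00859 became 0.0557 without WT em-KC replicate 3 (limma). Tdo2, the first enzyme of tryptophan breakdown, read 6.28, 6.75 and 5.57 in WT em-KCs and 5.26 to 6.73 in colony em-KCs and did not pass the test (difference 0.43 ± 0.28 SE, adjusted p = 0.286, limma).

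All 4 cytochromes P450, which oxidise drugs and steroids, were higher in WT em-KCs. Cyp1a2, of the pericentral lobule, read 7.51, 7.92 and 7.36 against 4.43 to 5.37 in colony em-KCs (6.37-fold). Cyp2e1, the ethanol-oxidising form, had the smallest difference at 3.16-fold. It read 8.73, 8.68 and 8.68 in WT em-KCs, with a colony range of 6.57 to 7.51. Cyp3a11 and Cyp2c29 were 3.30-fold and 3.16-fold higher.

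The esterases were higher in all 5 members, and Ces1c, a secreted carboxylesterase, had the largest difference of the 39. It read 10.21, 9.96 and 9.67 in WT em-KCs, and its lowest, median and highest levels in colony em-KCs were 6.23, 7.22 and 7.69 (2.78 ± 0.49 SE, 6.88-fold, adjusted p = 0.000484, limma). Aadac, a membrane esterase, was 6.04-fold higher. Fabp1, the liver fatty acid-binding protein, an abundant cytosolic protein of hepatocytes, went with none of them. Its levels were 9.63, 10.96 and 10.17 in WT em-KCs and 9.90 to 11.02 in colony em-KCs, and the difference was -0.16 with a 95% interval of -0.73 to 0.41.

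**Figure D3:**
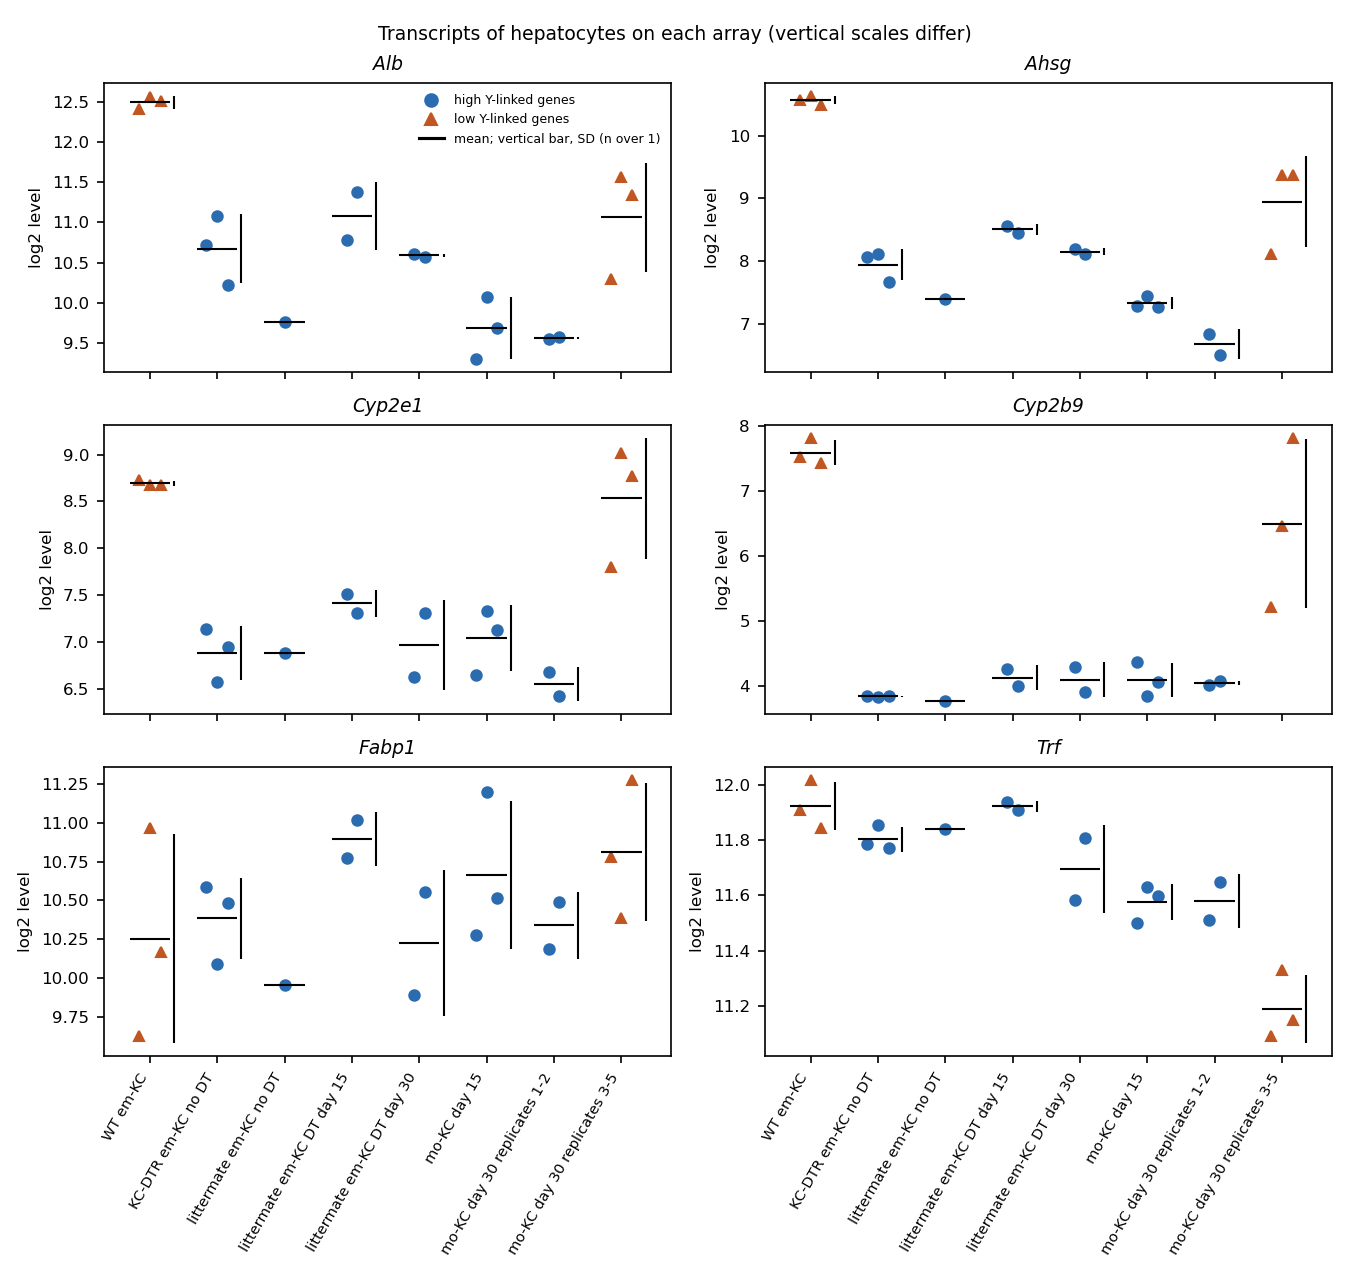
Log2 level (vertical axes, which differ in scale) of Alb, Ahsg, Cyp2e1, Cyp2b9, Fabp1 and Trf on each array by group. Circles are arrays with high and triangles arrays with low Y-linked genes, lines are means and bars SDs. Alb and Ahsg are highest in WT em-KCs, Cyp2e1 and Cyp2b9 are also high on day 30 mo-KC replicates 3 to 5, and Fabp1 overlaps in all groups.

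Mo-KCs 15 days after DT were compared with colony em-KCs, and both groups lay in the high Y-linked set. No colony em-KC array came from a KC-DTR mouse given DT. KC origin therefore cannot be told apart from the KC-DTR allele joined with DT, here or in the comparisons of day 30 mo-KCs with colony em-KCs. No member was called higher or lower by limma over all 19 arrays, where 0.206% of all genes were higher and 0.471% lower, although 10 members had an unadjusted p under 0.05, all of them lower, as had 3.08% of all genes. The methods' t-test called none after adjustment and 12 before it, 11 of them lower, where it called 4.64% of all genes lower before adjustment. The median difference was -0.31, and its sign was not the same in all role groups. All 8 plasma carriers and all 6 coagulation and matrix-binding proteins had differences below 0, with medians of -0.76 and -0.67, whereas all 5 metabolic enzymes had differences above 0, with a median of 0.42.

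With the spread taken from the 13 arrays of the high Y-linked set alone, 4 members were lower at day 15, against 0.737% of all genes, and none was higher. At an unadjusted p under 0.05, 17 were lower and 2 higher, against 4.66% and 4.21% of all genes. Vtn read 6.17, 6.24 and 6.36 in day 15 mo-KCs and 6.69 to 7.52 in colony em-KCs, a difference of -0.79 ± 0.14 (SE, adjusted p = 0.00586, limma). Kng1 read 5.84, 6.27 and 5.89 against 6.44 to 7.34 (-0.90 ± 0.17 SE, adjusted p = 0.0119, limma). The other 2 were Apoh, beta-2-glycoprotein I (-0.76), and Ambp, the precursor of alpha-1-microglobulin (-0.98). The day 15 arrays lay below every colony array for these 4 of the 39, and for 351 of all 19938 genes. They lay above every colony array for 1 member and for 249 of all genes. These orders rest on the same arrays as the calls. Leaving out 1 array at a time gave 1 to 7 calls, 1 without day 15 replicate 1 or 3, and 7 without KC-DTR em-KC replicate 3 or the untreated littermate. Alb stood at 9.30, 10.07 and 9.69 in day 15 mo-KCs and overlapped with the colony range (-0.95 ± 0.25 SE, adjusted p = 0.0973, limma).

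Over all arrays, day 30 mo-KCs differed from colony em-KCs in 1 member. Of the 39 none was higher and 1 was lower, where 0.336% of all genes were higher and 0.752% lower, and the median difference was -0.03. The member was Trf. It read 11.51, 11.65, 11.09, 11.33 and 11.15 on replicates 1 to 5 and 11.58 to 11.94 in colony em-KCs, a difference of -0.47 ± 0.09 (SE, adjusted p = 0.00717, limma). Replicates 3 to 5, of the low Y-linked set, were the lowest, and within the high set the difference was -0.23 (adjusted p = 0.597, limma). In the fit that also held a term for array set its adjusted p was 0.859, and with replicate number as a block 0.169.

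That median joined 2 unlike parts. For 34 of the 39 genes replicates 3 to 5 all lay above replicates 1 and 2, a count that was not made over all genes. The median gap between the means of the 2 parts was 1.04 on the log2 scale, against 0.00 over all genes. Ahsg read 6.84 and 6.51 on replicates 1 and 2 and 8.11, 9.37 and 9.37 on replicates 3 to 5. Alb read 9.55 and 9.57, then 10.29, 11.56 and 11.34. Cyp2e1 read 6.67 and 6.42, then 7.80, 9.02 and 8.78, and the last pair lay above the WT em-KC arrays. Replicate 3 lay within the colony range for Ahsg and Alb and above it for Cyp2e1.

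Set beside em-KCs of the same array set, both parts were lower, but the reference em-KCs were not the same for both. In the high Y-linked set, replicates 1 and 2 against the 8 colony em-KC arrays had differences below 0 in 38 of 39 members, with a median of -0.56, and 7 members were lower, against 0.211% of all genes, and no member was higher. The 7 were Fgg, Ahsg, Ambp, Fgb, Kng1, Apoh and Fga. Ahsg fell by 1.39 ± 0.22 (SE, adjusted p = 0.00831, limma) and Fgb by 1.25 ± 0.20 (SE, adjusted p = 0.00831, limma). Only 2 mo-KC arrays stand behind this, and without either of them no member passed, with the median at -0.55 or -0.54.

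In the low Y-linked set, replicates 3 to 5 against the 3 WT em-KC arrays had differences below 0 in 38 of 39 members, with a median of -1.40, a 2.63-fold lower level, against -0.04 over all genes. There 29 members were lower, against 1.59% of all genes, and none was higher. All replicates lay below all WT arrays for 33 of the 39, a count that was not made over all genes. Aadac fell by 2.06 ± 0.39 (SE, adjusted p = 0.0263, limma), Ambp by 2.05 ± 0.30 (SE, adjusted p = 0.012, limma) and Hpx, the haem carrier hemopexin, by 1.97 ± 0.18 (SE, adjusted p = 0.00299, limma). All 6 coagulation and matrix-binding proteins and all 4 protease inhibitors were lower. Alb was 2.69-fold lower (adjusted p = 0.0335, limma) and Trf 1.66-fold (adjusted p = 0.0192, limma). Cyp2e1 differed by -0.16 ± 0.28 (SE, adjusted p = 0.777, limma), and Fabp1 by 0.56 ± 0.33 (SE, adjusted p = 0.373, limma). Leaving out 1 of the 6 arrays at a time gave 13 to 21 calls, with 13, 18 and 15 without WT em-KC replicates 1, 2 and 3, and medians of -1.44 to -1.10. The WT em-KCs were neither labelled as littermates of KC-DTR mice nor given DT. KC origin, the KC-DTR allele, colony and DT therefore cannot be told apart in this comparison. Against colony em-KCs, which are of the other array set, replicates 3 to 5 had a median difference of 0.42, against -0.003 over all genes.

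**Figure D4:**
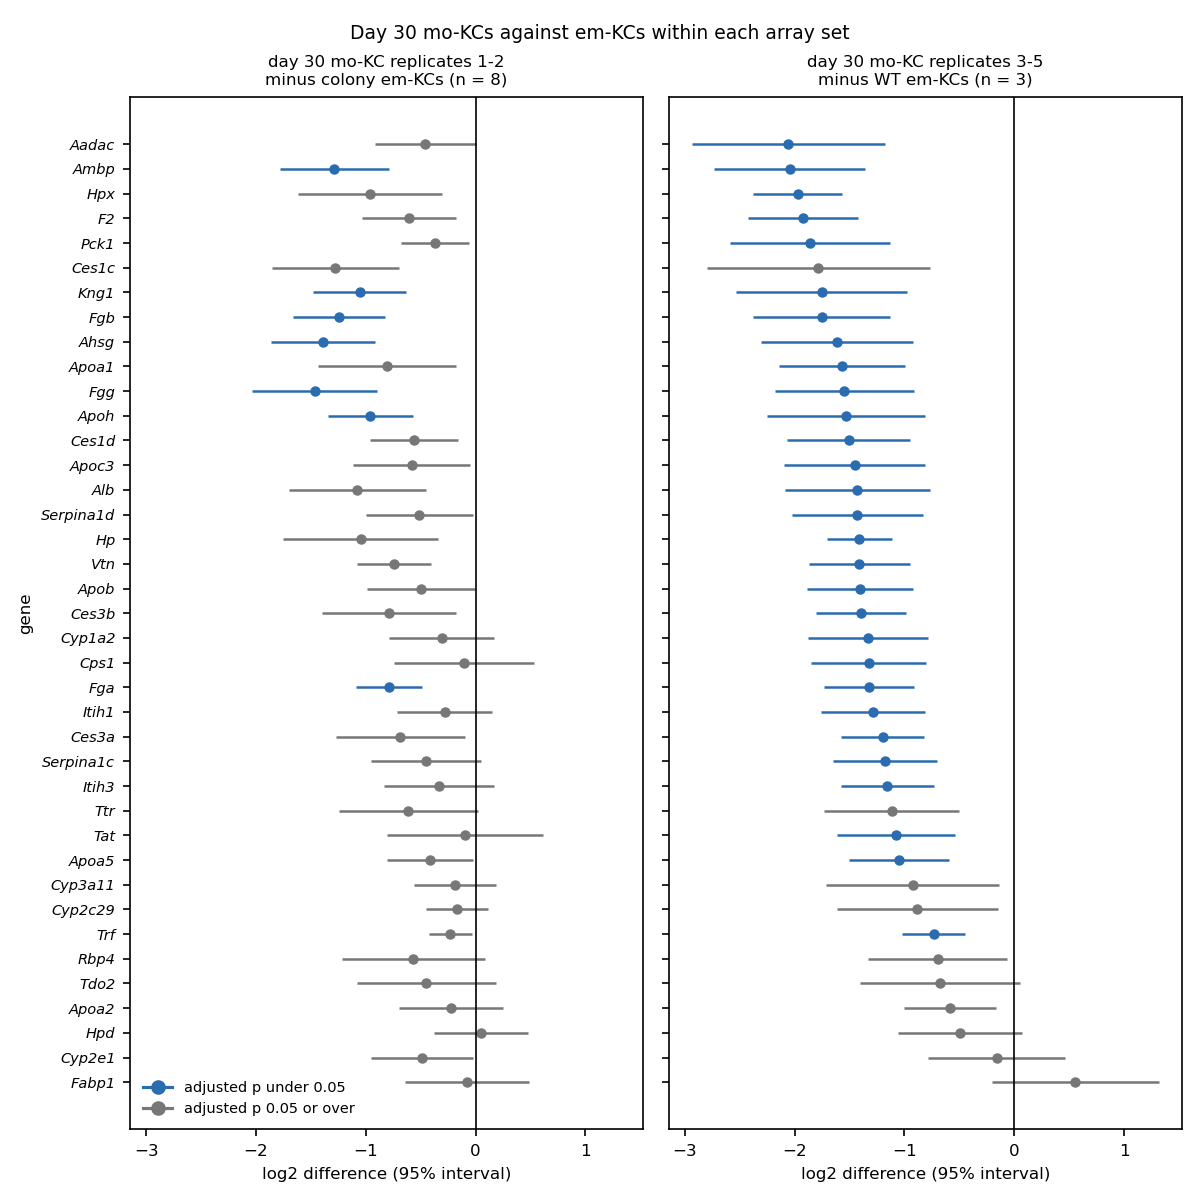
Differences in log2 level of the 39 transcripts (rows), with 95% intervals. On the left are day 30 mo-KC replicates 1 and 2 minus the 8 colony em-KC arrays (high Y-linked genes), on the right replicates 3 to 5 minus the 3 WT em-KC arrays (low Y-linked genes). Points left of 0 are lower in mo-KCs. 7 and 29 members pass the threshold.

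Between the mo-KC time points no member was called by limma, where 0.01% of all genes were higher at day 30 and 0.01% lower. At an unadjusted p under 0.05 there were 5 of the 39 members, against 7.46% of all genes. The methods' t-test called none after adjustment and 1 before it, Tdo2, which was lower. Before adjustment it called 2.01% of all genes higher and 1.91% lower. The median difference over all arrays was 0.38. Within the high Y-linked set it was -0.27, again with no call, so the direction turned with the arrays used.

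Untreated KC-DTR em-KCs (n = 3) were compared with littermate em-KCs (n = 5). Of the littermates 4 had received DT and 1 had not, so that the allele and DT exposure cannot be told apart in this comparison. No member was called by limma, where 0% of all genes were higher and 0% lower, and 1 member, Itih1, had an unadjusted p under 0.05, as had 4.24% of all genes. The methods' t-test called none after adjustment and 1 before it, Cyp1a2 and not Itih1, which was lower. Before adjustment it called 2.78% of all genes higher and 4.73% lower. The median difference was -0.20, and the 95% intervals of the 39 members were on median 0.63 wide to each side.

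**Figure D5:**
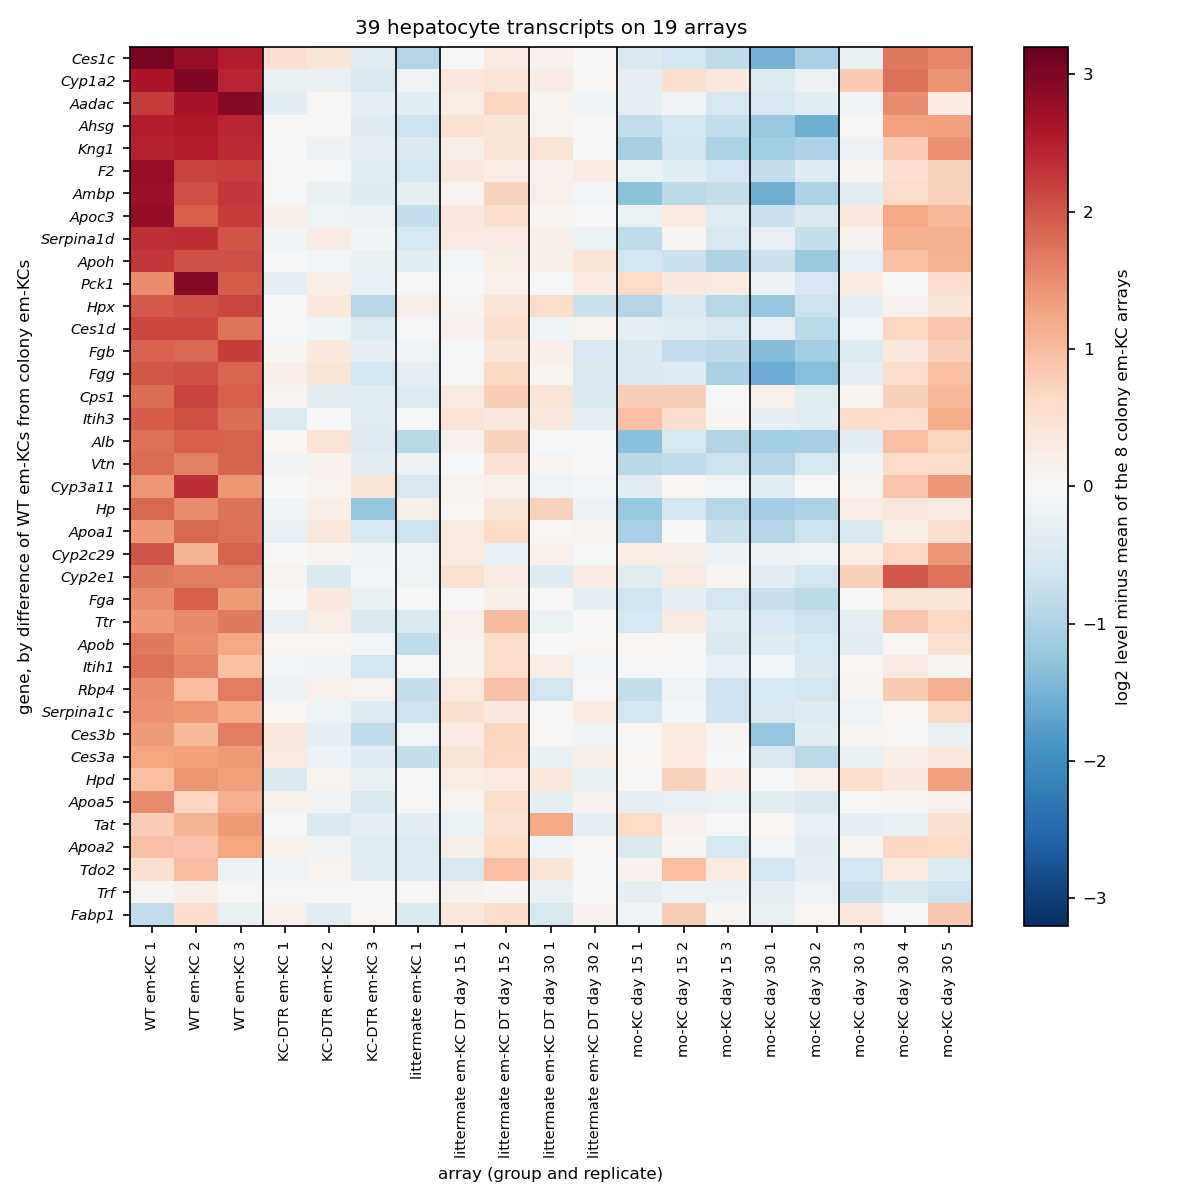
Log2 level minus the mean of the 8 colony em-KC arrays (colour) for each of the 39 transcripts (rows, ordered by the difference of WT em-KCs from colony em-KCs) on each array (columns). Red is higher and blue lower. WT em-KC columns are red in all but the last rows, and day 30 mo-KC replicates 4 and 5 are red in part.

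The transcripts also moved together outside the WT group, though not all of them. Over the 16 arrays other than WT em-KCs, Ahsg followed the mean of the other 38 members most closely (Pearson r = 0.95, Spearman rho = 0.96), then Kng1 (r = 0.93, rho = 0.91), and Alb was close behind (r = 0.91, rho = 0.90). These values were 0.91, 0.88 and 0.88 without the 2 arrays farthest from the median, day 30 mo-KC replicates 4 and 5. Trf (r = -0.25), Tat (0.24), Tdo2 (0.26), Pck1 (0.36) and Fabp1 (0.45) had the lowest r over the 16 arrays. That order depended on the arrays used. Without the same 2 arrays Trf stood at 0.30, and over the 13 arrays of the high Y-linked set at 0.61, where Hpd (0.25), Tat (0.26), Pck1 (0.27) and Cyp2c29 (0.28) were lowest. The genes outside the list most like the members' mean were Serpinc1, antithrombin (r = 0.96, rho = 0.97), F10, clotting factor X (r = 0.94), Krtap13-1 (0.89), H2-Q10 (0.89), Pzp (0.89), Itih4 (0.87), 1810065E05Rik (0.87), Scn2b (0.86), Crp (0.86) and Ctnna2 (0.86). These are descriptions over 13 arrays of the high and 3 of the low Y-linked set, so that the array set is part of what they share. Serpinc1, Pzp, Itih4 and Crp were in other hepatocyte lists, and the range of Krtap13-1, 4.32 to 4.77 over the 16 arrays, was narrow. The ranges of 1810065E05Rik (3.65 to 4.20), Scn2b (4.68 to 5.37) and Ctnna2 (4.23 to 4.79) were also low and narrow. Without day 30 mo-KC replicates 4 and 5, r of these genes outside the list ran from 0.72 (Crp) to 0.94 (Pzp).

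Other hepatocyte genes were read in the same fit of WT against colony em-KCs, where 9.5% of all genes were higher and 11.4% lower. Of 19 further plasma proteins 15 were higher and none lower, with a median difference of 1.55. Plg, plasminogen, was 6.09-fold higher (adjusted p = 7.74e-08, limma), Itih4 5.94-fold and Fetub 4.87-fold. Of 19 regulators and membrane proteins 13 were higher, with a median of 0.46. Abcc2, a bile canalicular pump, was 2.64-fold higher, and Slco1b2 and Slc10a1, uptake carriers of bile acids, 2.55-fold and 2.51-fold. Hnf4a, a factor that sets hepatocyte identity, was 1.72-fold higher (adjusted p = 0.00232, limma). Including array set as a block left 5 of the 19 plasma proteins higher (Plg, F12, Itih4, Fetub and Proc), with a median of 0.77, and 3 of the 19 regulators and membrane proteins (Nr1h4, Abcc2 and Gjb1), with a median of 0.27. Hnf4a was not among them. With that block 1.9% of all genes were higher.

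By lobule zone, 3 of 9 pericentral and 4 of 8 periportal genes were higher and none was lower, against 9.5% and 11.4% of all genes. Cyp7a1, the rate-limiting enzyme of bile acid synthesis, read 5.90, 5.73 and 5.64 in WT em-KCs and 3.60 to 4.24 in colony em-KCs, a 3.56-fold difference. Gulo, of ascorbate synthesis, was 2.69-fold higher, and Axin2, a Wnt target, 1.30-fold. Glul, glutamine synthetase, by contrast read 11.44 to 11.70 in WT em-KCs and 11.50 to 11.88 in colony em-KCs. Of the periportal genes Cyp2f2 was 2.80-fold, Hal, of histidine breakdown, 2.45-fold and Hsd17b13 1.79-fold higher. Of 14 acute phase genes 7 were higher, led by Fgl1 (3.99-fold), Serpina3n (2.89-fold) and Hamp, hepcidin (2.77-fold), and Mt1 was 1.34-fold lower. The array-set block removed most of these calls and left Cyp7a1, Gulo, Hal and Serpina3n, that is 2 of 9 pericentral, 1 of 8 periportal and 1 of 14 acute phase genes.

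Some sex-biased hepatocyte genes differed as well. Of 7 female-biased genes 4 were higher in WT em-KCs, against 9.5% of all genes. Of 8 male-biased genes 2, Hsd3b5 and Cyp4a12a, were lower, against 11.4% of all genes. No gene of either list passed once array set was a block, and Cyp3a16 (-0.10) and Slco1a1 (0.04) did not pass without it. Cyp2b9, a cytochrome P450 of the female liver, read 7.53, 7.82 and 7.44 in WT em-KCs, 5.22, 6.47 and 7.82 on day 30 mo-KC replicates 3 to 5, and 3.77 to 4.37 on all 13 arrays of the high Y-linked set. Cyp3a44 and Cyp2b13 were 2.10-fold and 2.00-fold higher in WT em-KCs. The part of the array set in the differences of the members was tested only as far as the block and the within-set values given above.

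Markers of other cells moved less than the hepatocyte transcripts. The counts below stand against 9.5% of all genes higher and 11.4% lower in WT em-KCs, so a single call in a list is little above or below that share. Of 12 KC markers 1, C1qc, was higher in WT em-KCs and 1, Clec1b, lower, and the mean of the list was 12.50 to 12.52 in WT and 12.42 to 12.52 in colony em-KCs. Of 14 markers of sinusoidal endothelium none was higher and 1, Bmp2, was lower. That list was high on every array, at 9.03 to 9.80 in WT em-KCs, 9.44 to 10.20 in colony em-KCs and 9.23 to 9.91 in mo-KCs, and its part in the result was not tested. Of 11 stellate cell and fibroblast markers 5 were higher, led by Dcn, decorin (1.97-fold), and the list mean was 6.78 to 6.88 in WT and 6.25 to 6.55 in colony em-KCs. Of the cholangiocyte markers 1 of 6 was higher (Epcam, 1.23-fold), of red cell and platelet markers 1 of 6 (Ppbp, 2.43-fold), and none of 8 neutrophil or 9 lymphocyte markers passed limma, with 0 and 2 at an unadjusted p under 0.05. Of the 13 immediate-early genes 12 were lower in WT em-KCs, Fosb by 3.55, Egr1 by 2.99 and Fos by 2.61 on the log2 scale, and their part in the hepatocyte result was not tested. Under the array-set block no immediate-early, endothelial, stellate, cholangiocyte, red cell and platelet, neutrophil or lymphocyte gene passed, so Epcam and Ppbp lost their calls. Of the KC markers C1qc and Clec1b no longer passed, and Csf1r alone was called, higher in WT em-KCs (0.44, adjusted p = 0.0381, limma). The medians of the immediate-early and endothelial lists turned from -1.81 to 0.17 and from -0.30 to 0.37.

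Against colony em-KCs over all arrays, few of these list genes passed in mo-KCs. At day 15 only Ecm1, an extracellular matrix protein kept in the stellate list, was called, and was lower than in colony em-KCs (-1.05 ± 0.13 SE, adjusted p = 3.57e-05, limma). At day 30 Ecm1 was again lower (-0.84), as were Clec4f (-1.26 ± 0.18 SE, adjusted p = 0.000342, limma), the complement gene C8b (-0.62), the heat shock gene Hspa1a (-1.56) and the Y-linked gene Uty (-2.30). Xist, which marks the array set, was called as well. Within the high Y-linked set, replicates 1 and 2 kept the call of Ecm1 alone (-0.80, adjusted p = 0.03, limma), while Clec4f (-0.74), C8b (-0.45), Hspa1a (-0.30) and Uty (-0.11) did not pass. Clec4f read 12.29 on day 30 replicate 1 and 10.66 to 11.24 on replicates 2 to 5, against 12.17 to 12.67 in colony em-KCs.

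Day 30 mo-KC replicates 3 to 5 against WT em-KCs, within the low Y-linked set, differed in more of these genes. Of the 19 further plasma proteins 12 were lower and none higher, with a median of -1.12, where 1.59% of all genes were lower. Plg fell by 2.39 ± 0.17 (SE, adjusted p = 0.0015, limma) and Itih4 by 2.02 ± 0.21 (SE, adjusted p = 0.00479, limma). Of the regulators and membrane proteins 3 of 19 were lower (Abcc2, Gjb1 and Tfr2), of the pericentral genes 2 of 9 (Cyp7a1 and Gulo), of the periportal genes 1 of 8 (Hal) and of the acute phase genes 2 of 14 (Serpina3n and Fgl1). No sex-biased gene was called. Among markers of other cells Clec4f, Ecm1 and Ppbp were lower and Pf4 was higher, and of the immediate-early genes Btg2 was higher.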

How the data were processed

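The authors deposited log2 expression values of 35556 probesets on 19 Affymetrix Mouse Gene 1.0 ST arrays, normalised together by RMA, a method that corrects background, forces all arrays onto 1 distribution and summarises probes. RMA gives no detection call, so the level at which a probeset reads only background is unknown, and low levels understate differences. Probesets with 1 gene symbol (21789) were kept, those with several (1621) or none (12146) were not, and the highest-mean probeset stood for each of 19938 genes. No pair of arrays was identical.

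Differences were fitted with limma 3.58.1 (R 4.3.3, lmFit and eBayes) over 4 groups (WT em-KCs, colony em-KCs, day 15 and day 30 mo-KCs; for KC-DTR against littermates over 5), two-sided. P-values were adjusted by Benjamini-Hochberg across the 19938 genes, and 0.05 was the threshold. The script was tested on simulated data. Precision is set by how many arrays each group has. The labels call the samples biological replicates, and p-values measure only the spread between them.

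The members and lists were chosen with earlier results of these data known. Full values were given for the member with the largest and the smallest WT difference in each role group and for each member called in mo-KCs, and up to 3 called genes of each other list were named. Alb, members called within an array set and a few further genes were added after their values were seen. Alternatives covered the grouping, probesets, dim genes, scaling, variance model, the methods' t-test, replicate and array-set blocks and single arrays.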

Additional observations from a re-analysis of the deposited data

Results flagged for a closer look

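In the groups of 4 to 10 arrays, 2 of 80 checks for an array far from the others were positive, where chance gives about 1 in 20. Hp (haptoglobin) read 6.66 on KC-DTR em-KC replicate 3, against 7.74 to 8.66 on the other 7 colony arrays. Trf read 11.58 on littermate DT day 30 replicate 1, against 11.77 to 11.94 on the other 7.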

How the results depend on the processing

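In WT against colony em-KCs the direction and the call held for 36 members with replicate number as a block, under the other scalings and with all probesets averaged. The array set as a block left 4 calls and a median of 0.67, with Cyp2e1 at -0.33. Fabp1, which was not called, ranged from -0.52 to 0.15 over single arrays left out. At day 15 against colony em-KCs, the median was -0.73 against all 11 em-KC arrays, the methods' t-test gave 12 calls unadjusted, and the replicate block and the array-set block each gave 1, Vtn, and the high Y-linked arrays alone 4.

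At day 30 against colony em-KCs, pooling all 11 em-KC arrays gave a median of -0.50 and Cyp1a2 at -0.050, and the methods' t-test adjusted gave 0 calls. The replicate block gave 1 call, Fgb and not Trf, and Cyp2e1 at -0.13. The array-set block gave 4 calls and the high Y-linked arrays alone 7, both with a median of -0.56, Cyp2e1 at -0.49 and Cyp1a2 at -0.31. Against WT em-KCs in the low Y-linked set there were 29 calls, a median of -1.40, and Hpd at -0.49, Cyp2e1 at -0.16 and Cyp1a2 at -1.33. For day 30 against day 15 the median was -0.11 with the replicate block and -0.27 with the array-set block or the high Y-linked arrays alone, where Kng1 was -0.15 and Serpina1d -0.10, and the methods' t-test gave 1 call unadjusted, as it did for KC-DTR em-KCs against littermates. The causes of these changes were not tested. Replicate numbers gave no clear sign of pairing: of 18 same-numbered pairs 2 had deviations correlated above 0.1, with r from -0.12 to 0.15. Both were pairs of KC-DTR em-KCs with day 15 mo-KCs, at replicates 2 (0.15) and 3 (0.14). Deviations of day 30 mo-KCs were taken from a mean over both array sets, so pairs with that group say little about pairing. Some alternatives were chosen after seeing the data, namely the array-set block for WT em-KCs and leaving out single arrays within a set. RMA values carry no background level, which limits what can be said of dim members.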
